A study of Mus musculus with 298 samples.

Results

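The receptor chains, kinases, transcription factor and inhibitor through which leukaemia inhibitory factor (LIF) and ciliary neurotrophic factor (CNTF) act were followed across 298 cells isolated one by one from thoracic sympathetic ganglia of mice. The genes were chosen by name as 7 of the 16892 rows of the deposited count table, namely the receptor genes Lifr, Il6st and Cntfr, the kinase genes Jak1 and Jak2, the transcription factor gene Stat3 and the inhibitor gene Socs3. Cells came from thoracic ganglia of mice in which a Wnt1-Cre driver, active in the neural crest, switches on a R26R-Tomato reporter, and this cross is shared by all groups. Ganglia were dissociated with enzymes, and cells caught on a microfluidic chip were kept where inspection by eye found them single and healthy. The labels assign 4 cells to Glutamatergic, 16 to the cholinergic identities Ach1 and Ach2 (8 each) and 193 to 5 noradrenergic identities. Of these, Noradrenergic1 has 10 cells, Noradrenergic2 39, Noradrenergic4 18 and Noradrenergic5 23, and the rest are Noradrenergic3, the largest identity. They leave 85 cells Unclassified, and these entered no comparison. Mice were of both sexes (91 cells labelled male and 207 female) and between postnatal day 11 and postnatal day 38.

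LIF binds LIFR, which pairs with the shared signal transducer gp130, the product of Il6st. CNTF first binds CNTFR and then recruits the same pair. The paired receptors activate JAK kinases bound to them, these phosphorylate STAT3, and STAT3 enters the nucleus and switches on genes that include Socs3, whose protein blocks the receptor and its kinases. In cultured rodent sympathetic neurons LIF and CNTF lower noradrenergic traits and raise acetylcholine synthesis and certain neuropeptides, and in the mouse the change from noradrenergic to cholinergic transmission in the nerve supply of sweat glands depends on gp130. The values below are RNA counts. They do not measure surface receptor or phosphorylated STAT3.

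The labels name no animals, so all cells of the same sex and age were treated as 1 collection, and the collection was the replicate. There were 10 collections. Counts of the cells of 1 identity in 1 collection were summed to a library, and levels are given as counts per 10000 counts, as mean ± SD over collections. Between identities, p-values measure the scatter of these libraries after a term for the collection, and not the spread between animals. Of the 44 libraries 28 held at least 2 cells. The others were single cells, among them most Ach1 and Glutamatergic libraries, so an n of collections can rest on single cells. The depth of a cell lay between 7225 and 81589 counts (median 33099). Medians were 25756 in Glutamatergic, 32937 in cholinergic and 37379 in noradrenergic cells. All 10 sympathetic neuron markers checked were detected in every identity. The collection labelled female at day 16 held 5 cells with 0 Xist counts and 28 counts of Y-linked genes. The other collections labelled female all had Xist counts and at most 4 counts of Y-linked genes, and those labelled male had 0 Xist counts. These cells therefore look male, against their label. They are called female below only by label, and they did not enter the comparison of sexes. The identities may have been drawn by the submitters from these same transcriptomes, so differences between identities are not independent of how the cells were sorted into them.

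On the mouse genome (GRCm38, the assembly of the mm10 build, GENCODE M21) Lifr lies on chromosome 15 at 7090614 to 7197489 on the plus strand. Il6st lies on chromosome 13 at 112464070 to 112510086 (plus) and Cntfr on chromosome 4 at 41657498 to 41697089 (minus). Jak1 lies on chromosome 4 at 101152367 to 101265282 (minus) and Jak2 on chromosome 19 at 29251828 to 29313080 (plus). Stat3 and Socs3 share chromosome 11, at 100885098 to 100939540 and at 117966079 to 117970047, both on the minus strand. Jak1 overlaps Raver2 and Stat3 overlaps Stat5a on the opposite strand, and whether the counting used strand is not given in the sources used here, so reads in the shared stretches could belong to either gene. Stat5a itself had 37 counts in all cells, against 1408 counts for Stat3.

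The promoters of Socs3, Stat3 and Lifr are shown because Socs3 is the feedback inhibitor that STAT3 is known to switch on, and because Stat3 and Lifr had the lowest p-values of the members over the 8 identities. Each window runs from 250 bases before to 50 bases after the RefSeq start site, 5′ to 3′ on the gene's strand (GRCm38.p6). Capitals mark the STAT-type motif TTCNNNGAA, which reads the same on both strands.
Socs3 (chr11:117969317-117969616, minus): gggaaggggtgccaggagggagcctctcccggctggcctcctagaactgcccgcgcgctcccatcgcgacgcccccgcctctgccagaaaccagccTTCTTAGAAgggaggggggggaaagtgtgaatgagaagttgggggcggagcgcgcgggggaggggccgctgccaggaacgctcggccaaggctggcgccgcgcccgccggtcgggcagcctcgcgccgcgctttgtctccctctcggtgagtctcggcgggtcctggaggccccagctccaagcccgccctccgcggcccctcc
Stat3 (chr11:100939491-100939790, minus): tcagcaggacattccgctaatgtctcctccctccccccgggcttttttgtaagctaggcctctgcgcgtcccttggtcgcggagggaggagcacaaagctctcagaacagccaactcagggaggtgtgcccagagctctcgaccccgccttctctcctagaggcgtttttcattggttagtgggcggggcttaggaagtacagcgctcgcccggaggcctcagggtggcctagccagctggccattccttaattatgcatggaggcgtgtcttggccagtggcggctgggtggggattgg
Lifr, first start site (chr15:7129322-7129621, plus): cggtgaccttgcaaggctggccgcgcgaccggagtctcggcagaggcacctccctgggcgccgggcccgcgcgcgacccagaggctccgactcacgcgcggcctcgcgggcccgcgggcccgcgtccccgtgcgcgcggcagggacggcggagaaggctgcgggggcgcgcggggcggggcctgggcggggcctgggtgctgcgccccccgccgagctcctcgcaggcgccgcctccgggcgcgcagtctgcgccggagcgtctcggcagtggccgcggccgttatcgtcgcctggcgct
The Socs3 window held the motif once, its first base 154 bases before the start site, and the windows of the other 6 members, over all start sites listed for them, held none. That says only that these letters are not in those windows. The motif occurred in 8.3% of 32851 promoter windows of the same length. A match is a description of letters and not a measured binding site.

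Taken over all 8 identities in a single edgeR fit, Lifr, Stat3 and Jak1 differed between identities and Il6st, Cntfr, Jak2 and Socs3 were not called. The 3 calls out of 7 members stand beside 10.4% of 11555 tested genes called at an adjusted p under 0.05. The adjusted p was 3.52e-12 for Lifr, 3.31e-04 for Stat3 and 0.0038 for Jak1. It was 0.506 for Socs3, 0.857 for Jak2, 0.930 for Il6st and 0.948 for Cntfr. Counts behind the members ranged from 48 for Cntfr, found in 40 cells, and 140 for Il6st, found in 104 cells, to 1707 for Jak1, found in 282 cells. In the plot of levels by identity the sparse members show collections at 0 in most identities.

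**Figure D1:**
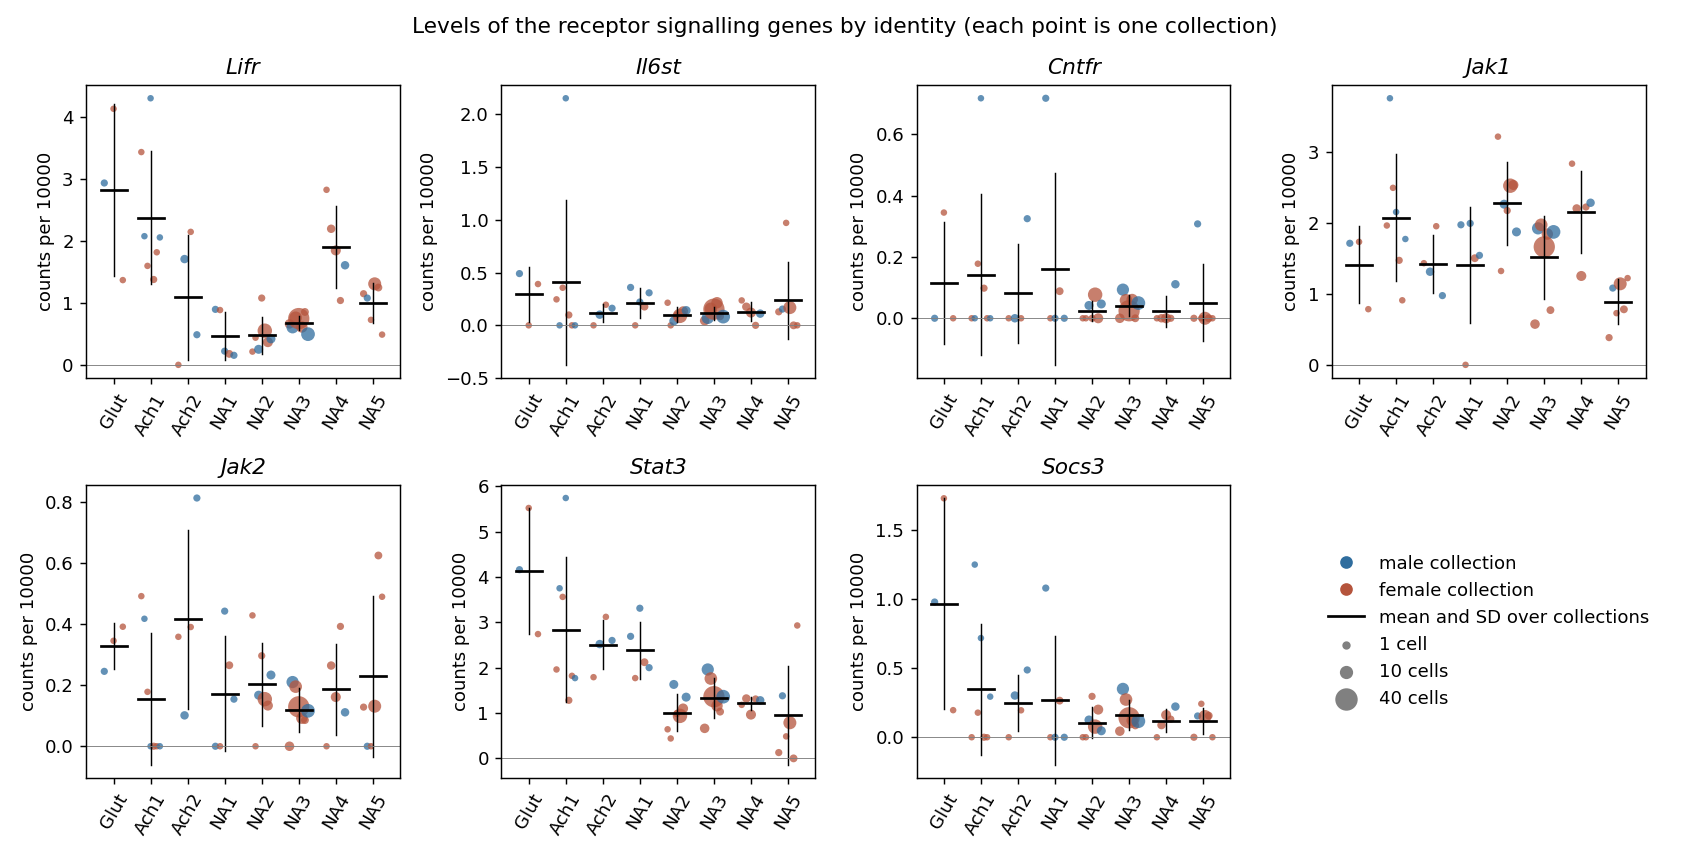
Level of each member in counts per 10000 (vertical axis) in Glutamatergic (Glut), Ach1, Ach2 and Noradrenergic1 to 5 (NA1 to NA5) cells. Each point is 1 collection, blue where labelled male and red where labelled female. Its area grows with its number of cells, and bars give the mean and SD over collections. Lifr reached 2.82 in Glutamatergic, 2.38 in Ach1 and 1.91 in Noradrenergic4 cells on average, and Stat3 reached 4.14 in Glutamatergic cells.

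Lifr, the receptor chain that LIF binds directly, was the member with the lowest p-value over the 8 identities in the edgeR fit. Its mean level was highest in Glutamatergic cells at 2.82 ± 1.39 (SD, n = 3 collections), then in Ach1 at 2.38 ± 1.08 (n = 7), Noradrenergic4 at 1.91 ± 0.665 (n = 5), Ach2 at 1.09 ± 1.01 (n = 4) and Noradrenergic5 at 1.00 ± 0.323 (n = 6). It was lower in Noradrenergic3 at 0.677 ± 0.12 (n = 7), Noradrenergic2 at 0.475 ± 0.292 (n = 7) and Noradrenergic1 at 0.467 ± 0.388 (n = 5). No pair of neighbours in this order differed by more than the larger of their SDs. The order therefore describes a slope from high to low and does not separate adjacent identities.

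Cholinergic cells held more Lifr than noradrenergic cells. Collections of cholinergic cells had a lowest level of 1.05, a median of 1.82 and a highest of 4.31 counts per 10000, and collections of noradrenergic cells had a lowest level of 0.214, a median of 0.63 and a highest of 1.04. The groups did not overlap, though only by 1.05 against 1.04, and the cholinergic level was the higher in 7 of 7 collections that held both. How many of all genes separate in this way was not counted. The value of 4.31 is 1 cell with 6 Lifr counts. Noradrenergic levels here pool all noradrenergic cells of a collection, and Noradrenergic4 alone ran from 1.04 to 2.83, across much of the cholinergic range. The fitted log2 fold change was 0.94 (SE 0.26, edgeR adjusted p = 0.0108), with Ach1 and Ach2 weighted equally and the 5 noradrenergic identities weighted equally, so that Noradrenergic4 counts as much as the far larger Noradrenergic3. The call held in 8 of 11 other settings. It was lost with voom (0.79, adjusted p = 0.0666), with libraries of at least 2 cells (0.77, adjusted p = 0.346) and with cells thinned to 15000 counts, where the value fell to 0.37 (adjusted p = 0.747). It was also lost without the day 29 male collection (0.82, adjusted p = 0.256) and without the day 30 female collection (0.91, adjusted p = 0.0655), and it held in 8 of 10 fits that left out a collection.

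Of the cholinergic identities, Ach1 had the higher mean. Its 7 collections had a lowest Lifr level of 1.38, a median of 2.06 and a highest of 4.31, each above the noradrenergic level of the same collection. The 4 Ach2 collections had 0, 0.487, 1.71 and 2.15, and 2 of these 4 were above the noradrenergic level of their collection. The difference between Ach1 and Ach2 itself was not called (log2 fold change 0.58, SE 0.42, adjusted p = 0.795). Lifr counts were present in 8 of 8 Ach1 cells and 6 of 8 Ach2 cells.

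Glutamatergic cells also held more Lifr than noradrenergic cells. Their 3 collections had 1.37, 2.94 and 4.14 counts per 10000, all above the highest noradrenergic collection at 1.04. The number of all genes that separate 3 collections in this way was not counted. The log2 fold change was 1.59 (SE 0.39, adjusted p = 0.00424). The call rested on 4 cells and held in 8 of 11 other settings and in 8 of 10 fits that left out a collection. It was lost without the day 29 male collection (1.62, adjusted p = 0.101) and without the day 31 female collection (1.38, adjusted p = 0.278). It was also lost with thinned cells (1.52, adjusted p = 0.0846). With libraries of at least 2 cells, where 1 Glutamatergic library is left, the log2 fold change was 1.74.

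Among noradrenergic identities, Lifr rose in Noradrenergic4. The 5 collections of Noradrenergic4 had 1.04, 1.61, 1.85, 2.20 and 2.83 counts per 10000, and the 7 collections of Noradrenergic3 ran from 0.496 to 0.855, with a median of 0.662. The ranges did not overlap, and Noradrenergic4 was higher in 5 of 5 collections that held both. How many of all genes separate these 2 identities in this way was not counted. Against the other 4 noradrenergic identities the log2 fold change was 1.61 (SE 0.26, adjusted p = 5.84e-07), and by p-value Lifr was gene 19 of 11555. Lifr was the 1 member of 7 called in this comparison, and it was higher, beside 1.25% of genes called in all and 0.952% called higher. The call held in 11 of 11 other settings and in 10 of 10 fits that left out a collection, with log2 fold changes between 1.49 and 1.72.

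Noradrenergic1 stood at the other end. Its 5 collections had 0.154, 0.177, 0.221, 0.886 and 0.897 counts of Lifr per 10000. The log2 fold change against the other noradrenergic identities was −1.53 (SE 0.48, adjusted p = 0.084), short of the threshold. Without the day 29 male collection, which holds the highest of these values, it was −2.28 (adjusted p = 0.0315), and without the day 31 female collection it was −0.99 (adjusted p = 0.679). It stayed uncalled in 10 of 11 other settings. The 6 Noradrenergic5 collections ran from 0.489 to 1.31 with a median of 1.11, overlapping Noradrenergic3, and were not called (0.63, SE 0.29, adjusted p = 0.474).

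Once depth was equalised, the share of cells with a Lifr count followed the order of mean levels only in part. Noradrenergic5 had about the share of Noradrenergic4 and a higher one than Ach2. In cells thinned to 15000 counts each, with 20 shallower cells left out, Lifr was counted in 4 of 4 Glutamatergic, 7 of 7 Ach1 and 6 of 8 Ach2 cells. It was counted in 17 of 18 Noradrenergic4 cells (94.4%), 21 of 22 Noradrenergic5 cells (95.5%), 60.2% of Noradrenergic3 cells, 20 of 39 Noradrenergic2 cells (51.3%) and 2 of 9 Noradrenergic1 cells (22.2%). Mean Lifr counts over the thinned cells were 4.75 in Glutamatergic, 2.89 in Noradrenergic4, 2.57 in Ach1, 1.82 in Noradrenergic5 and 1.62 in Ach2 cells. By this measure Noradrenergic4 was above Ach1 and Noradrenergic5 above Ach2, unlike in the order of levels over collections. Without thinning the shares were closer, at 18 of 18 Noradrenergic4, 23 of 23 Noradrenergic5, 87.4% of Noradrenergic3, 34 of 39 Noradrenergic2 and 7 of 10 Noradrenergic1 cells.

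**Figure D2:**
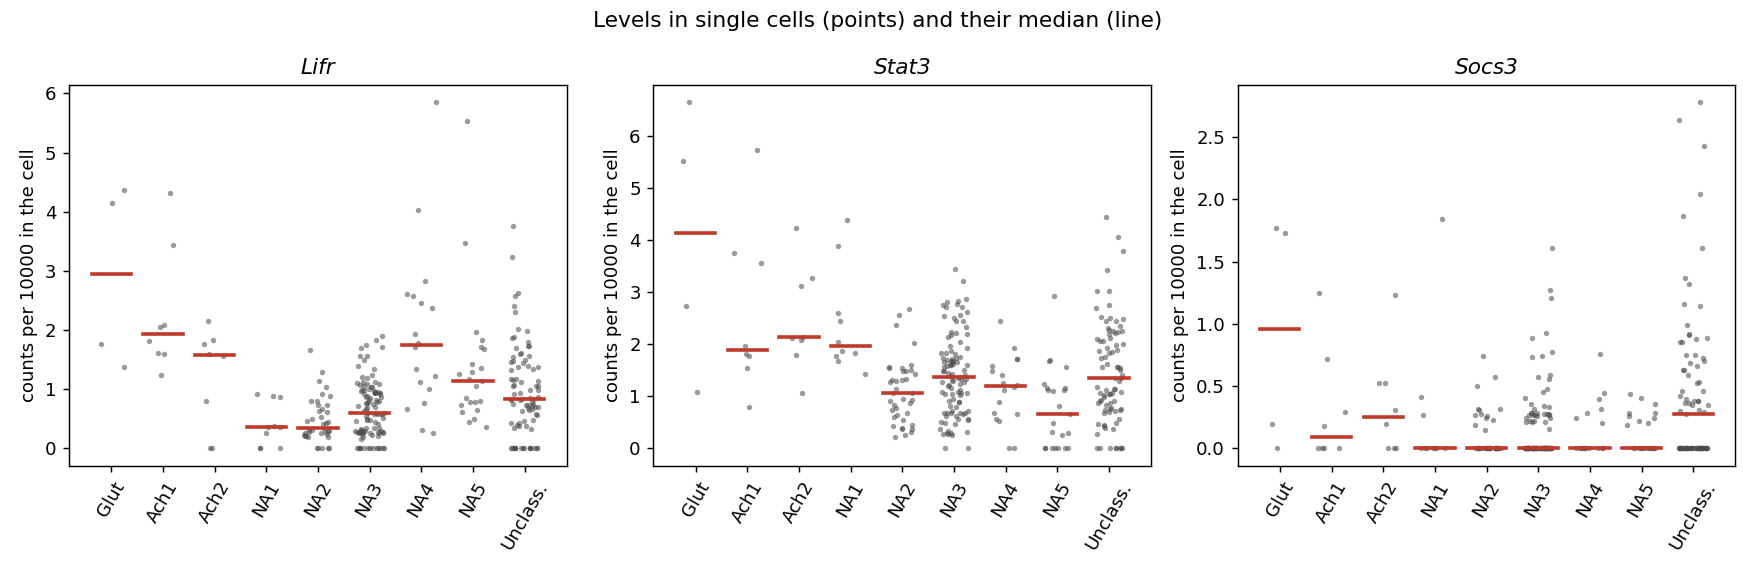
Counts per 10000 of Lifr, Stat3 and Socs3 (vertical axes) in each single cell, by identity, with Unclassified cells at the right. Points are cells and red lines are medians. The median Lifr level was 1.94 in Ach1, 1.75 in Noradrenergic4 and 0.604 in Noradrenergic3 cells, and the median Socs3 level was 0 in every noradrenergic identity.

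Il6st, which encodes the shared transducer gp130, was sparse and was called in no comparison. Its level was 0.294 ± 0.259 in Glutamatergic (n = 3), 0.409 ± 0.774 in cholinergic (n = 7) and 0.126 ± 0.0703 in noradrenergic cells (n = 10). The cholinergic mean rested on 1 cell, the Ach1 cell of the day 30 male collection, at 2.15, and the cholinergic level was the higher in 2 of 7 collections. Fitted log2 fold changes were 1.03 (SE 0.91, adjusted p = 0.686) in Glutamatergic and −0.14 (SE 0.60, adjusted p = 0.982) in cholinergic against noradrenergic cells. A count of Il6st was found in 3 of 4 Glutamatergic, 7 of 16 cholinergic and 71 of 193 noradrenergic cells (36.8%, exact 95% interval 30.0 to 44%, for counting error only).

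Cntfr, the chain that gives the complex its specificity for CNTF, was the sparsest member. It was counted in 1 of 4 Glutamatergic cells, 5 of 16 cholinergic cells and 25 of 193 noradrenergic cells (13%, exact 95% interval 8.56 to 18.5%). Its level was 0.115 ± 0.199 in Glutamatergic (n = 3), 0.160 ± 0.258 in cholinergic (n = 7) and 0.0294 ± 0.0438 in noradrenergic cells (n = 10). The fitted log2 fold change was 0.29 (SE 1.36, adjusted p = 1) in Glutamatergic and 0.51 (SE 0.74, adjusted p = 0.825) in cholinergic cells. With SEs of this size on the log2 scale, a difference of that order was not detectable at this depth.

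Few cells had a count of all 3 receptor chains, while most cells with an Il6st count also had a Lifr count. Lifr and Il6st were both counted in 3 of 4 Glutamatergic, 7 of 16 cholinergic and 66 of 193 noradrenergic cells (34.2%). Lifr, Il6st and Cntfr were all counted in 0 of 4 Glutamatergic, 3 of 16 cholinergic and 13 of 193 noradrenergic cells (6.74%). All 7 members were counted together in 0 of 4 Glutamatergic, 1 of 16 cholinergic and 2 of 193 noradrenergic cells. Each share is bounded by its sparsest gene.

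Jak1, a kinase that gp130 receptors depend on, was called over the 8 identities together but in no single comparison. Its level was 1.41 ± 0.541 in Glutamatergic (n = 3), 1.65 ± 0.476 in cholinergic (n = 7) and 1.78 ± 0.682 in noradrenergic cells (n = 10). Its log2 fold change was −0.64 (SE 0.43, adjusted p = 0.582) in Glutamatergic and −0.30 (SE 0.23, adjusted p = 0.58) in cholinergic against noradrenergic cells. A count of Jak1 was found in 4 of 4 Glutamatergic, 16 of 16 cholinergic and 187 of 193 noradrenergic cells.

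Noradrenergic2 had the highest mean Jak1 level and Noradrenergic5 the lowest. The 7 Noradrenergic2 collections had a lowest level of 1.32, a median of 2.26 and a highest of 3.21, and the 6 Noradrenergic5 collections had a lowest level of 0.383, a median of 0.929 and a highest of 1.22. These ranges did not overlap. The pair was picked for having the highest and lowest means, and how many of all genes separate so was not counted. Each identity was tested against the other 4, and both fell short of the threshold, Noradrenergic2 with a log2 fold change of 0.66 (SE 0.20, adjusted p = 0.0592) and Noradrenergic5 with −0.91 (SE 0.27, adjusted p = 0.0634). No member was called in either comparison, beside 1.64% and 1.41% of genes, while Jak1 and Lifr (2 of 7) in Noradrenergic2 and Jak1, Stat3 and Lifr (3 of 7) in Noradrenergic5 had an unadjusted p under 0.05, a level that 8.37% and 8.23% of genes reached. Without the block for the collection both passed, at 0.72 (adjusted p = 0.0374) and −1.005 (adjusted p = 0.0341), and both passed with DESeq2, at 0.69 (adjusted p = 0.0073) and −0.90 (adjusted p = 0.0261). Leaving out the day 34 female collection also made both pass, at 0.68 (adjusted p = 0.0447) and −0.98 (adjusted p = 0.0370), and Noradrenergic2 passed without the day 30 male collection (0.69, adjusted p = 0.0300). Noradrenergic2 nevertheless stayed uncalled in 6 of 11 other settings and in 8 of 10 fits that left out a collection. Noradrenergic5 stayed uncalled in 8 of 11 other settings and in 9 of 10 such fits. Jak1 in Noradrenergic5 was below Noradrenergic3 in 5 of 6 collections that held both.

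Jak2, the second kinase of the complex, had 160 counts in 114 cells and was not called. Its level was 0.327 ± 0.075 in Glutamatergic (n = 3), 0.200 ± 0.219 in cholinergic (n = 7) and 0.192 ± 0.144 in noradrenergic cells (n = 10). Jak2 had a log2 fold change of 0.64 (SE 0.89, adjusted p = 0.823) in Glutamatergic and −0.12 (SE 0.51, adjusted p = 0.981) in cholinergic cells. Between Ach1, where 5 of 7 collections were under 0.2, and Ach2, where the 4 collections had 0.101, 0.358, 0.39 and 0.812, the log2 fold change was −1.64 (SE 0.92, adjusted p = 0.719).

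Stat3, the transcription factor that carries the signal to the nucleus, was higher in Glutamatergic and in cholinergic cells than in noradrenergic cells. The 3 Glutamatergic collections had 2.74, 4.16 and 5.52 counts per 10000 (mean 4.14 ± 1.39). The cholinergic collections had a lowest level of 1.28, a median of 2.30 and a highest of 5.74, and the noradrenergic collections a lowest level of 0.439, a median of 1.27 and a highest of 3.31. These last ranges overlap across collections, yet inside a collection the cholinergic level was the higher in 7 of 7 and the Glutamatergic level in 3 of 3.

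For Glutamatergic against noradrenergic cells the log2 fold change of Stat3 was 1.34 (SE 0.33, adjusted p = 0.00439). The call held in 8 of 11 other settings and in 9 of 10 fits that left out a collection. With thinned cells the log2 fold change was 1.135 (adjusted p = 0.190) and the call was lost. It was 1.03 with libraries of at least 2 cells, where 1 Glutamatergic library is left. Without the day 31 female collection the log2 fold change was 1.147 (adjusted p = 0.266). For cholinergic against noradrenergic cells it was 0.68 (SE 0.21, adjusted p = 0.0367), and this call was the least stable of those made for the members. It held in 4 of 11 other settings and in 5 of 10 fits that left out a collection, with log2 fold changes between 0.41 and 0.86. It was lost without each of the collections from day 16 female (0.65), day 29 male (0.74), day 30 female (0.51), day 33 female (0.66) and day 38 male (0.66), at adjusted p-values from 0.0661 to 0.28.

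Mean Stat3 levels in Ach1, Ach2 and Noradrenergic1 were within 1 SD of each other, and the means of the other 4 noradrenergic identities were lower. The means were 2.84 ± 1.59 in Ach1 (n = 7), 2.51 ± 0.547 in Ach2 (n = 4) and 2.38 ± 0.622 in Noradrenergic1 (n = 5), against 1.33 ± 0.438 in Noradrenergic3 (n = 7), 1.21 ± 0.148 in Noradrenergic4 (n = 5), 1.01 ± 0.403 in Noradrenergic2 (n = 7) and 0.953 ± 1.09 in Noradrenergic5 (n = 6). The step of 1.05 between Noradrenergic1 and Noradrenergic3 was larger than the larger SD of the pair, which no other step between neighbours was in the order of any member. Noradrenergic1 was higher than Noradrenergic3 in 4 of 4 shared collections. Tested against the other 4 noradrenergic identities it did not pass (log2 fold change 0.68, SE 0.29, adjusted p = 0.358), nor did the low Noradrenergic5 (−0.81, SE 0.29, adjusted p = 0.176). Without the day 34 female collection, whose single Noradrenergic5 cell had the highest value at 2.93, the Noradrenergic5 comparison gave −1.09 (adjusted p = 0.0285).

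Stat3 and Jak1 were read together in most cells. Both were counted in 4 of 4 Glutamatergic, 16 of 16 cholinergic and 178 of 193 noradrenergic cells (92.2%). Noradrenergic5 had the lowest share among the identities, at 15 of 23 cells (65.2%).

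Socs3, the inhibitor that STAT3 induces and whose promoter is shown above, had its highest mean in Glutamatergic cells. The 3 Glutamatergic collections had 0.196, 0.979 and 1.73 counts per 10000 (mean 0.967 ± 0.765), the cholinergic collections averaged 0.258 ± 0.287 (n = 7) and the noradrenergic collections 0.106 ± 0.11 (n = 10), with a noradrenergic maximum of 0.317. The Glutamatergic level was the higher in 3 of 3 collections. At 1.74 (SE 0.66, adjusted p = 0.173), the log2 fold change missed the threshold. It stayed uncalled in 7 of 9 other settings that gave a value and in 10 of 10 fits that left out a collection. It passed with RLE size factors (2.17, adjusted p = 0.0483) and with voom (1.76, adjusted p = 0.0435). It was 1.01 without the day 31 female collection and 0.26 (adjusted p = 0.996) with the summed level of immediate-early and stress genes as a covariate, a level that was higher in these cells. For cholinergic cells it was 0.27 (SE 0.51, adjusted p = 0.882). A Socs3 count was found in 3 of 4 Glutamatergic, 9 of 16 cholinergic and 70 of 193 noradrenergic cells.

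**Figure D3:**
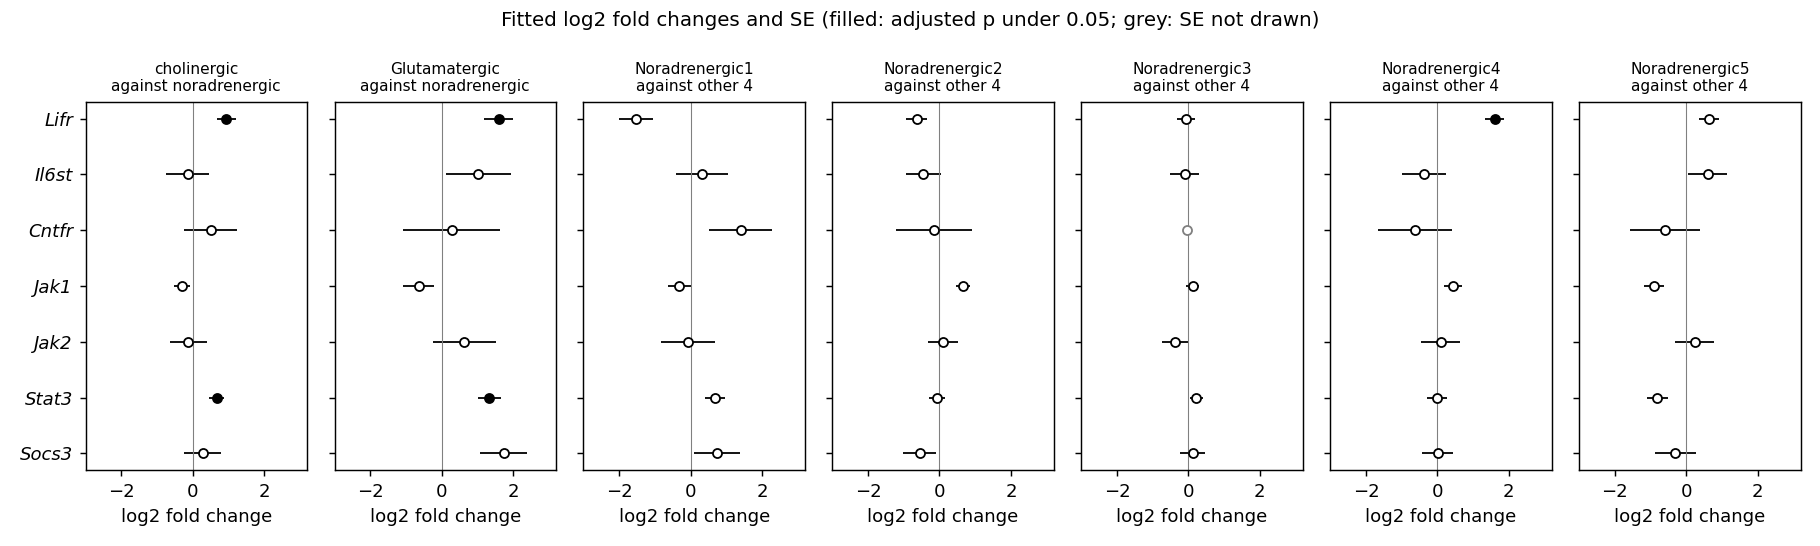
Fitted log2 fold change (horizontal axis) and its SE for each member in 7 comparisons between identities. Filled points passed an adjusted p of 0.05. The 5 filled points are Lifr and Stat3 in cholinergic and in Glutamatergic cells and Lifr in Noradrenergic4, and the grey point for Cntfr in Noradrenergic3 has no SE drawn because its F value was close to 0.

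Counted over the members, 2 of 7 rose in cholinergic against noradrenergic cells and none fell, beside 4.57% of all genes called in either direction and 2.17% called higher. For Glutamatergic against noradrenergic cells 2 of 7 rose and none fell, beside 2.63% of all genes called and 1.62% called higher. The median log2 fold change of the members was 0.28 in cholinergic and 1.03 in Glutamatergic cells, against −0.20 and −0.39 over all 11555 genes. With RLE size factors the median over all genes was −0.04 and 0.02, so fold changes depend on the scaling and are best read against these medians. The log2 fold changes of Lifr and Stat3 under that scaling were 1.11 and 0.86 in cholinergic and 2.06 and 1.78 in Glutamatergic cells. All genes called split into 251 higher and 277 lower in cholinergic cells, and 338 and 219 with RLE size factors. In Glutamatergic cells the split was 187 and 117, and 291 and 46 with RLE size factors. Both comparisons use the same noradrenergic libraries, so they are not independent of each other.

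In the remaining comparisons few or no members moved. Ach1 against Ach2 gave 0 of 7 members by edgeR and by voom, beside 0.138% of all genes. DESeq2 called 0 and gave no adjusted p for Il6st, Cntfr, Jak2 and Socs3. No member had an unadjusted p under 0.05 by edgeR, against 7.41% of genes. Noradrenergic3 against the other 4 gave 0 of 7 by edgeR and voom, beside 1.74% of genes, 0 by DESeq2, which gave no adjusted p for Cntfr, and 0 at an unadjusted p under 0.05, against 9.83% of genes. Noradrenergic1 gave 0 of 7 by edgeR, beside 1.39% of genes, and 0 by DESeq2, which gave no adjusted p for Il6st and Cntfr, while Lifr and Stat3 had an unadjusted p under 0.05, against 9.36% of genes.

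Satellite glia and Schwann cell markers and immediate-early genes moved with these comparisons. The summed level of the 14 glial markers had a median of 28.4 counts per 10000 in Glutamatergic cells (range 15.1 to 52.1, with Erbb3 at 0) and 31.1 in cholinergic cells (range 4.81 to 64.2), against 5.68 in noradrenergic cells (range 0.864 to 66.6). In Noradrenergic4 it was 9.72 (range 2.92 to 53.8, with Erbb3 at 0). The summed level of the 19 immediate-early and stress genes had a median of 50.1 in Glutamatergic (range 13.7 to 64.8) and 28.4 in cholinergic cells (range 5.28 to 92.9), against 13 in noradrenergic cells (range 2.59 to 69.7). With the glial level as a covariate Lifr stayed called in both comparisons, while Stat3 in cholinergic cells gave 0.63 (adjusted p = 0.138). With the stress level as a covariate Stat3 in cholinergic cells gave 0.65 (adjusted p = 0.0889), and in Glutamatergic cells Lifr gave 1.47 (adjusted p = 0.0792) and Stat3 1.29 (adjusted p = 0.0508). All 10 macrophage markers were at 0 in Glutamatergic and Ach1 cells and 9 of 10 in Ach2 cells, and their median sum was 0 in every identity.

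Of the 10 ligands of the family listed, 7 were in the table and 2 had enough counts for a test. Cntf, the ligand CNTF, had 42 counts in 36 of 298 cells and was not called over the 8 identities (adjusted p = 0.461). Il6, the cytokine interleukin-6, had 4 counts in 3 of 4 Glutamatergic cells and 35 counts in 10 of 193 noradrenergic cells (log2 fold change 4.18, SE 1.14, adjusted p = 0.0152). This call was lost without the day 29 male (3.84, adjusted p = 0.342) and without the day 31 female collection (3.58, adjusted p = 0.434), with libraries of at least 2 cells (5.39, adjusted p = 0.192), and with the glial level (3.29, adjusted p = 0.398) or the stress level as a covariate (1.44, adjusted p = 1). The other 5 ligands had 1 to 6 counts each in all cells, and Lif was not analysed here.

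Among the other receptors of the family, Il11ra1 was the 1 gene tested. It encodes the interleukin-11 receptor chain that pairs with gp130. It differed over the 8 identities (adjusted p = 0.0357) and is named after its values were seen. Its level was 0.0816 ± 0.141 in Glutamatergic (n = 3), 0.659 ± 0.434 in cholinergic (n = 7) and 0.625 ± 0.449 in noradrenergic cells (n = 10), and it was not called in Glutamatergic (−2.97, adjusted p = 0.132) or cholinergic cells (−0.24, adjusted p = 0.816). Of 6 other JAK and STAT genes and of 11 other inhibitors tested, among them other SOCS, PIAS and phosphatase genes, 0 were called over the 8 identities by edgeR, beside 10.4% of all genes. Stat5b, Cish and Ptpn2, named after their values were seen, had an unadjusted p under 0.05. At least 10.4% of all genes reach that level, since an unadjusted p is never above the adjusted one, so no excess is read from these genes.

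The branch from gp130 through SHP2 to ERK held 10 tested genes. Over the 8 identities 2 of the 10 were called, beside 10.4% of all genes. In cholinergic cells 2 of the 10 were called (1 higher and 1 lower), beside 4.57% of all genes. In Glutamatergic cells 1 was called (higher), beside 2.63% of all genes. Gab1, an adaptor that links SHP2 to the receptor, rose in both classes. Its level was 0.541 ± 0.519 in Glutamatergic (n = 3) and 0.379 ± 0.205 in cholinergic cells (n = 7), against 0.0715 ± 0.0708 in noradrenergic cells (n = 10), and it was counted in 2 of 4, 11 of 16 and 34 of 193 cells. Fitted values were 3.04 (SE 0.89, adjusted p = 0.032) in Glutamatergic and 1.87 (SE 0.55, adjusted p = 0.0178) in cholinergic cells. The Glutamatergic value rests on 6 counts, and its call held in 4 of 9 other settings. It was lost with the glial level (2.89, adjusted p = 0.0762) and the stress level as a covariate (3.35, adjusted p = 0.066), with thinned cells (2.93, adjusted p = 0.156) and with no block (2.63, adjusted p = 0.0682). It lost its call without the day 31 (2.59) or the day 33 female collection (2.47) and turned to −3.90 (adjusted p = 0.841) with libraries of at least 2 cells, where 1 Glutamatergic library is left. The cholinergic call was lost without the day 29 male (1.17) and day 38 male collections (1.79), and with the glial level as a covariate (1.75, adjusted p = 0.0773).

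Shc1, an adaptor that feeds receptor signals to RAS, fell in cholinergic cells. The means were 1.05 ± 1.05 in Ach1 (n = 7) and 0.215 ± 0.21 in Ach2 (n = 4), against 1.03 ± 0.32 in noradrenergic cells (n = 10), so only Ach2 had a mean below the noradrenergic spread. Ach1 against Ach2 was not called (1.95, adjusted p = 0.374). The log2 fold change was −1.08 (SE 0.32, adjusted p = 0.0226) with both cholinergic identities weighted equally. It was lost without the day 31 female (−1.03) and day 38 male collections (−0.90), and it held in 5 of 11 other settings. It was lost with RLE size factors (−0.93, adjusted p = 0.0757), filterByExpr (−0.95, adjusted p = 0.0722), libraries of at least 2 cells (−1.02, adjusted p = 0.195) and thinned cells (−1.13, adjusted p = 0.196). It was also lost with the glial level (−0.96, adjusted p = 0.115) and with the stress level as a covariate (−0.98, adjusted p = 0.0839). The other 8 genes of the branch were not called in the cholinergic comparison.

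The list of genes that STAT3 is known to switch on held 14 tested genes, of which 3 are also in the list of immediate-early and stress genes. Over the 8 identities 4 of the 14 were called, beside 10.4% of all genes. Against the other noradrenergic identities, Noradrenergic1 had 1 of the 14 called, which was higher, beside 1.39% of genes called. In cholinergic cells 1 of 14 rose and none fell, beside 4.57% of all genes called and 2.17% called higher. That gene was Atf3, an injury and stress response factor, at 1.25 ± 1.86 in Ach1 (n = 7) and 4.10 ± 2.76 in Ach2 (n = 4), against 0.505 ± 0.328 in noradrenergic cells (n = 10). Its log2 fold change was 1.17 (SE 0.27, adjusted p = 6.26e-04). It was 0.80 (adjusted p = 0.284) without the day 29 male collection. The call was lost with the glial level as a covariate (0.78, adjusted p = 0.149) and with the stress level (0.33, adjusted p = 0.727), a sum that includes Atf3. It was also lost with DESeq2 (1.09, adjusted p = 0.0748) and with libraries of at least 2 cells (0.95, adjusted p = 0.488). Atf3 was also lower in Ach1 than in Ach2 (−1.68, SE 0.39, adjusted p = 0.0208), a call that held in 2 of 10 other settings that gave an adjusted p and was lost without the day 16, day 31 and day 33 female and the day 38 male collections (−1.28 to −1.71).

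In Glutamatergic cells 2 of the 14 STAT3 target genes rose and none fell, beside 2.63% of all genes called and 1.62% called higher. Cebpd, a transcription factor of the acute phase response, was at 0.919 ± 1.01 in Glutamatergic (n = 3), against 0.0331 ± 0.0483 in noradrenergic cells (n = 10; log2 fold change 3.77, SE 0.79, adjusted p = 2.87e-04). Bcl3, a nuclear partner of NF-kappaB, was at 0.475 ± 0.412 in Glutamatergic (n = 3), against 0.0282 ± 0.0487 in noradrenergic cells (n = 10; 4.12, SE 1.03, adjusted p = 0.0048). These rest on 9 and 5 counts in 3 of 4 Glutamatergic cells each. Cebpd lost its call without the day 31 female collection (2.54, adjusted p = 0.557) and Bcl3 without that collection (3.57) or the day 29 male collection (4.57). With the stress level as a covariate they gave 2.18 (adjusted p = 0.56) and 3.11 (adjusted p = 0.504), and with the glial level Cebpd gave 2.19 (adjusted p = 0.381). With libraries of at least 2 cells Cebpd gave 2.25 (adjusted p = 0.689) and Bcl3 5.18 (adjusted p = 0.0537), and with the chip as block Bcl3 gave 2.85 (adjusted p = 0.149). The median log2 fold change of the 14 genes was 0.84 in Glutamatergic and −0.15 in cholinergic cells, against −0.39 and −0.20 over all genes.

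Transmitter genes that these cytokines are known to raise or lower in culture help to define the identities and are given as context with no test. The genes raised in culture differed in which class held them. Vip, a neuropeptide gene, averaged 0.49 ± 0.848 counts per 10000 in Glutamatergic (n = 3) and 84.9 ± 36.1 in cholinergic cells (n = 7), against 0.139 ± 0.187 in noradrenergic cells (n = 10). Slc5a7, the choline transporter gene, averaged 0.0816 ± 0.141 in Glutamatergic and 6.72 ± 3.01 in cholinergic cells, against 0.0591 ± 0.0746 in noradrenergic cells. Chat and Slc18a3, which make and load acetylcholine, had no count in the 4 Glutamatergic cells and were counted in 11 and 15 of 16 cholinergic cells. Tac1, the substance P gene, averaged 38.8 ± 13.2 in Glutamatergic cells and had no count in cholinergic cells. Gal, the galanin gene, averaged 24 ± 19.3 in Glutamatergic and 0.14 ± 0.254 in cholinergic cells, against 18.7 ± 11.4 in noradrenergic cells. The sum of Th, Dbh, Npy, Slc6a2 and Slc18a2 had a median of 6.26 (range 0.546 to 172.0) in Glutamatergic and 13.2 (range 3.18 to 210.0) in cholinergic cells, against a range of 48.2 to 335.0 in noradrenergic cells. Noradrenergic4, which had the highest Lifr level of the noradrenergic identities, had a median of 104.0 for this sum.

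Sex was compared in Noradrenergic3, with 2 male and 5 female collections. No member of the 6 tested was called (lowest adjusted p = 0.9998 by edgeR, 0 at an unadjusted p under 0.05, and 0 with DESeq2), beside 0.0296% of 10141 genes called and 2.86% at an unadjusted p under 0.05. Cntfr had too few counts for this test. Lifr was 0.496 and 0.607 in the male collections, against 0.612, 0.662, 0.748, 0.761 and 0.855 in the female collections. The log2 fold change was −0.42 (SE 0.28, edgeR adjusted p = 0.9998), and no sex difference is read from it. Stat3 was 1.36 and 1.96 in male and 0.662 to 1.76 in female collections (0.36, SE 0.25).

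Age could not be told apart from collection, since each age and sex is 1 collection. In Noradrenergic3 cells the day 11 female collection of 6 cells had the lowest value of 7 collections for Stat3 (0.662), Jak1 (0.573), Il6st (0.0441) and Socs3 (0.0441), and no count of Jak2 or Cntfr. Lifr in that collection was 0.662, the median of the 7. From day 29 to day 34 the Stat3 level was 1.96, 1.76, 1.36, 1.16 and 1.03 in the day 29 male and the day 30, 31, 33 and 34 female collections, and it was 1.36 at day 38. Jak1 was 0.77 in the day 34 female collection of 3 cells and between 1.66 and 1.97 from day 29 to day 33 and at day 38.

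**Figure D4:**
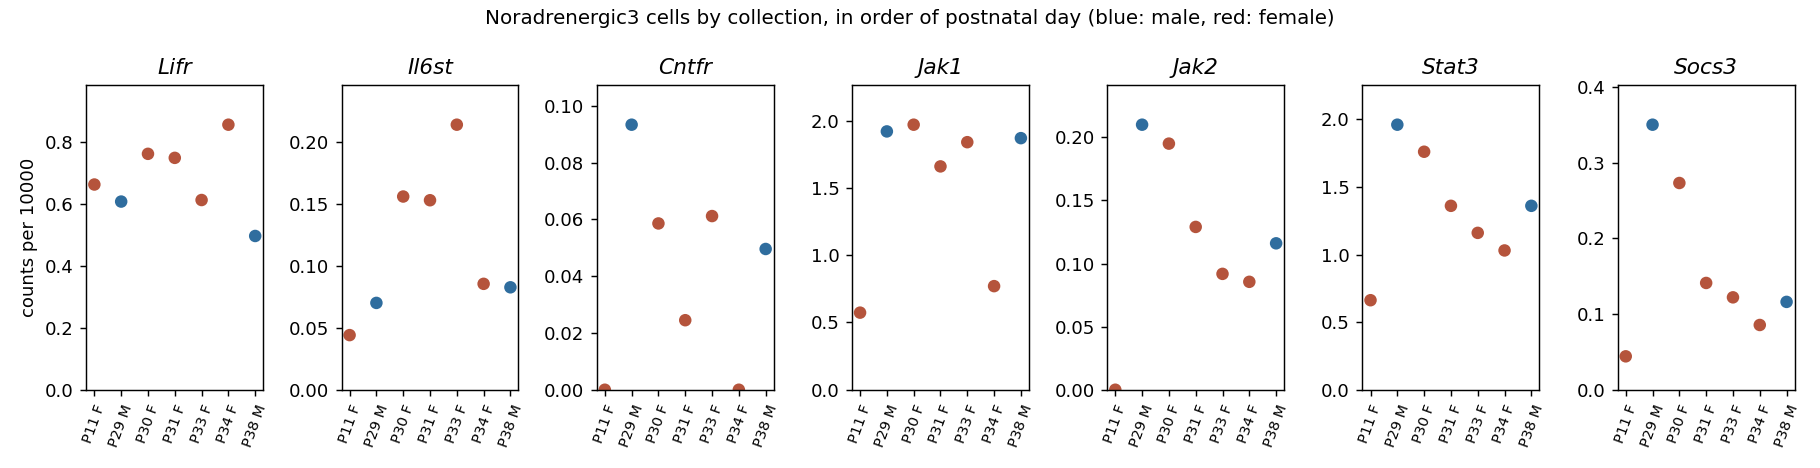
Counts per 10000 (vertical axes) of each member in Noradrenergic3 cells, 1 point per collection in order of postnatal day, male in blue and female in red. Stat3 and Jak1 were lowest in the day 11 collection, at 0.662 and 0.573, and Lifr stayed between 0.496 and 0.855.

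Genes whose levels ran most like those of each member were sought over 12 libraries of at least 5 cells, all of them noradrenergic, among 8146 or 8147 genes with a count in each. Spearman's rho is given as a description, and points share collections and depth. For Lifr these were Jakmip3 (0.916), Map3k1 (0.902) and 3110001I22Rik (0.867). For Stat3 they were Ppp2ca, the catalytic subunit of protein phosphatase 2A (0.951), the splicing factor gene Rbfox1 (0.937) and Clasp2 (0.916). For Jak1 they were Pam, whose enzyme amidates peptide hormones (0.874), Pdlim5 (0.86) and Nat8l (0.846). For Socs3 they were Akt2 (0.888), Rev3l (0.881) and Fasn, fatty acid synthase (0.853). For the sparser members they were Lman1 (0.93), 2700049A03Rik (0.832) and Copg2 (0.818) for Jak2, Actr6 (0.923), Fam193a (0.874) and Jhdm1d (0.86) for Il6st, and Ttbk1 (0.904), Flot1 (0.868) and Egfl7 (0.851) for Cntfr. None of these was another member. Cntfr had no count in the day 33 female Noradrenergic2, day 11 female Noradrenergic3, and day 31 female Noradrenergic4 and Noradrenergic5 libraries.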

How the data were processed

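Single cells of the mouse thoracic ganglion were caught on medium microfluidic chips, and their polyadenylated RNA was barcoded with Tn5 transposase, per the labels' protocols. The deposited table holds a raw count per gene and cell, 16892 genes by 298 cells, and 0 columns were left without a sample. The genome build was mm10, per the submitters' processing notes. The aligner, counter, strand setting and any collapsing of molecules are not given in the sources used here. The table's values are whole numbers, read as deposited.

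Cells were grouped by the labelled identity and summed per identity and collection (sex and age), which gave 44 libraries. Libraries were checked for identical columns, of which there were 0. Genes were kept when their counts summed to 20 or more and 3 or more libraries had one (11555). They were scaled by TMM and fitted by edgeR 4.0.16 robust quasi-likelihood in R 4.3.3, with terms for identity and collection. Contrasts weighted identities equally, F tests were two-sided, with a Benjamini-Hochberg threshold of 0.05 over all genes. The SE is the absolute log2 fold change divided by the square root of F, so it restates the test. For sex, Noradrenergic3 libraries of at least 3 cells were fitted with sex alone. The collection was kept as the block because libraries deviated together within it. Over 3563 genes, deviations from the identity mean correlated at 0.206 to 0.289 in 4 pairs of libraries that share a collection, and the 20 pairs that do not averaged −0.0514 (libraries of 5 or more cells).

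Alternatives were RLE size factors, filterByExpr, no filter, DESeq2 1.42.0, voom in limma 3.58.1, no block, the chip as library and block, libraries of at least 2 cells, thinning to 15000 counts and leaving out each collection. The glial and stress levels as covariates were added after seeing the data. The scripts were tested on simulated data. Levels and shares were computed with Python 3.11.15 and pandas 2.3.3. Single-cell shares carry exact (Clopper-Pearson) 95% intervals that cover counting error only. The members and gene lists were chosen with earlier results of these data known. Genes named were the 7 members, list genes called in the cholinergic, Glutamatergic or Ach1 against Ach2 comparison, and for each member the 3 genes with the highest Spearman correlation over libraries of at least 5 cells (log2 CPM, prior count 2). Of the listed genes 6 had no row and were not analysed here. Promoters are from RefSeq (GRCm38.p6), and all 7 members matched.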

Additional observations from a re-analysis of the deposited data

Results flagged for a closer look

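In 49 groups of 4 to 7 collections the highest or lowest collection was compared with the rest by Dixon's ratio, and 10 groups held a collection far from the others. The cut-offs flag about 1 in 20 groups of normally distributed values. Sparse counts are not such values, and a group with a count in only 1 collection is always flagged. The 10 groups therefore cannot be set against that share. Lifr was high in Noradrenergic2 in the day 30 female collection, at 1.08 counts per 10000. Il6st was high in Ach1 in the day 30 male collection at 2.15, a single cell, and in Noradrenergic5 in the day 30 female collection at 0.97, also a single cell. Cntfr was high in Ach1 in the day 30 male collection (0.718), in Ach2 in the day 38 male collection (0.325), in Noradrenergic1 in the day 29 male collection (0.718), in Noradrenergic4 in the day 38 male collection (0.111) and in Noradrenergic5 in the day 29 male collection (0.308), in each case beside collections at or near 0. Jak1 was at 0.0 in the single Noradrenergic1 cell of the day 30 female collection. Socs3 was high in Noradrenergic1 in the day 29 male collection, at 1.08.

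Socs3 also stood out in cells that entered no comparison. Over the 85 Unclassified cells its pooled level was 0.481 counts per 10000, against 0.155 over the noradrenergic cells, and the difference was not tested. Unclassified cells had a median glial marker sum of 26.3 and a median stress gene sum of 24.1, against 5.68 and 13 in noradrenergic cells, and the part of these in the Socs3 level was not tested.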

How the results depend on the processing

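The call for Lifr in Noradrenergic4 kept its direction and passed in every alternative run and with each collection left out. Of the 7 members, 3 differed over the 8 identities, against 1 with thinned cells and 2 to 3 with each collection left out. The 2 members that rose in cholinergic cells became 1 with no filter, with the chip as block, with the glial level and with the stress level, and 0 with voom, with libraries of at least 2 cells and with thinned cells (0 to 2 with each collection left out). The 2 that rose in Glutamatergic cells became 0 with libraries of at least 2 cells, thinned cells and the stress level (0 to 2 with each collection left out). In Noradrenergic1 the 0 that fell became 1 with the chip as block (0 to 1 with each left out). In Noradrenergic2 the 0 that rose became 1 with DESeq2, no replicate block, the chip as block, libraries of at least 2 cells and the stress level (0 to 1). In Noradrenergic5 the 0 that fell became 1 with DESeq2 and no replicate block and 2 with libraries of at least 2 cells (0 to 2). Without the block no other member changed its call in these comparisons, while Gab1 in Glutamatergic cells (2.63, adjusted p = 0.0682) and Atf3 in Ach1 against Ach2 (−2.06, adjusted p = 0.465) were lost. Gab1 in Glutamatergic cells turned to −3.90 with libraries of at least 2 cells, where 1 Glutamatergic library is left. For the other changes the cause was not tested.

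Counts over all genes moved too. In cholinergic cells 528 became 287 with thinning, 298 with filterByExpr 279 with libraries of at least 2 cells and 348 without the day 29 male collection. In Glutamatergic cells 304 became 185, 141 and 184 under the same settings, 134 with the stress level and 775 with voom, 97 without the day 29 male and 91 without the day 31 female collection. Over the 8 identities 1196 became 474 with filterByExpr and 2074 with voom. Ach1 against Ach2 went between 3 and 21 calls, 5 of them without the day 38 male collection, and 16 was the count reported. Thinning, filterByExpr and voom gave 63, 88 and 391 for the 161 of Noradrenergic1, 84, 61 and 71 for the 189 of Noradrenergic2, 127, 56 and 475 for the 201 of Noradrenergic3, 65, 79 and 77 for the 145 of Noradrenergic4, and 63, 53 and 98 for the 163 of Noradrenergic5. Noradrenergic1 also gave 242 with libraries of at least 2 cells, Noradrenergic3 326 with the chip as block, Noradrenergic5 90 with DESeq2, and sex 8 with no filter for the 3 reported. Leaving out the day 31 female collection gave 114, 117, 87 and 56 in Noradrenergic2 to 5, and fewer by over 1.5 times in Noradrenergic1 too. The day 29 male collection gave 90 in Noradrenergic1, 118 in Noradrenergic2 and 6 for sex, and the day 38 male collection 92, 124 and 96 in Noradrenergic1, 3 and 4. In Noradrenergic3 RLE size factors changed the split of 169 higher and 32 lower to 115 and 45. DESeq2 gave no adjusted p for Bcl3, Cebpd, Gab1 and Il6 in Glutamatergic cells or for Atf3 in Ach1 against Ach2. Cntfr, Il6st, Jak2 and Socs3 had few counts, and moderate differences in them were not detectable at this depth.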

Other observations

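The 85 Unclassified cells, which the labels place in no identity, came from 7 collections. The day 11 female collection held 1 such cell and the collection labelled day 16 female held 2. Many of the lowest and highest values below come from these, among them Socs3 at 0 and at 1.21. Lifr ran from 0.729 to 1.34 counts per 10000 (median 0.853) and was counted in 70 of 85 cells. Stat3 ran from 0.447 to 1.85 (median 1.29) and was counted in 77 cells. Jak1 ran from 1.07 to 2.67 (median 1.36), with counts in 75 cells. Socs3 ran from 0 to 1.21 (median 0.364), with counts in 43 cells, and in 30 of 68 cells (44.1%) after thinning to 15000 counts, against shares of 17.9 to 27.3% in the 5 noradrenergic identities. Il6st ran from 0 to 0.286 (median 0.0726), Jak2 from 0 to 0.447 (median 0.174) and Cntfr from 0 to 0.243 (median 0.0469).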
